A study of Mus musculus with 12 samples.

Results

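Proteasome genes were examined as a group in dorsal root ganglia, where the cell bodies of sensory neurons lie, of YAC Q84 and wild-type (WT) mice at 24 weeks of age. The group was every protein-coding gene whose symbol starts with Psm, a letter from a to g and a number. The rule took 50 of the 21595 protein-coding genes matched to the deposited transcripts. One of the 50, Psmc3ip, encodes a meiotic recombination factor and is no proteasome gene, and it is counted because the rule takes it. In YAC Q84 mice a yeast artificial chromosome brings in the human ATXN3 gene under its own promoter, with an expanded CAG repeat like that of spinocerebellar ataxia type 3, beside their own mouse Atxn3 genes. WT mice are their controls, and the labels give no number of transgene copies. Poly(A) RNA of 12 libraries was sequenced: 1 Q84 male, 5 Q84 females, 3 WT males and 3 WT females. The labels do not say whether each library came from its own animal, so the p-values rest on differences among libraries, which may be technical.

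The proteasome degrades proteins that carry ubiquitin. Its core particle is a barrel of alpha rings around beta rings, and the beta subunits encoded by Psmb5, Psmb6 and Psmb7 cut protein chains. Interferon makes cells exchange these for the products of Psmb8, Psmb9 and Psmb10 and form the immunoproteasome, which is best known for producing peptides for antigen presentation. A regulatory cap of ATPases and other subunits unfolds substrates and feeds them into the barrel, and ataxin-3, the protein that ATXN3 encodes, is a deubiquitinase.

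Libraries held 66490481 to 86891563 estimated counts, with no difference between Q84 and WT that passed a test of their means (two-sided exact permutation p = 0.180, n = 6 each). A transcript of the mouse Atxn3 gene of 1000 bases served to check the genotype labels. It stood at 62.7 to 79.4 TPM in 5 of 6 Q84 libraries and at 0 to 0.285 TPM in 5 of 6 WT libraries. Against their labels, Q84 female 5 had it at 0.0612 TPM and WT female 2 at 34.0 TPM. In the values by library and by group these are given apart, and the main comparison is of the other 10 libraries, 5 Q84 and 5 WT, beside that of all 12 as labelled. As a check of the tissue, the 10 sensory neuron markers listed for it were detected, at a summed 6189 to 6750.5 CPM, estimated counts scaled to library size, in the 5 Q84 libraries and 6340 to 8343 CPM in the 5 WT libraries. In bulk tissue, fewer cells of a type and less RNA per cell cannot be told apart.

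Proteasome transcripts held 0.727 to 0.862% of all estimated counts per library. All 50 genes passed the filter on low counts. In the 10 libraries 1 gene rose in Q84, Psme1, 1 fell, Psmc5, and 48 did not pass the test (edgeR quasi-likelihood test, Benjamini-Hochberg adjusted p under 0.05). That is 4.00% of the members, while 6.45% of all 18721 genes tested were called. Among all genes tested 1.52% were called higher and 4.93% lower. The median log2 fold change was -0.04 over the 50 members and 0.01 over all genes tested. With all 12 libraries as labelled 0 of 50 members were called (edgeR, lowest adjusted p = 0.104), where 0.0053% of 18875 genes were called. At an unadjusted p under 0.05 there were 4 members in that comparison, Psme1, Psmd2, Psmd11 and Psmc5, and 14.3% of all genes, and DESeq2 called 2, Psme1 higher and Psmd2 lower, with 3.28% of all genes called by DESeq2. The median over the members was then -0.02.

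The promoters of both called genes and of Psmb5, which encodes a standard catalytic subunit, are shown to set the motifs searched in them beside the results below. Each window runs from 250 bases before to 50 bases after the annotated start and is given 5′ to 3′ on the gene's strand, with sequences from RefSeq on GRCm38.p6, an earlier build than that of the deposited tables. Capitals mark the motif found, and all motifs were searched on both strands. In Psme1 the capitals are an interferon-stimulated response element core, a GAAA repeated after any 2 bases, read on the opposite strand and starting at base 10 of the transcript. In Psmb5 they are the core of an antioxidant response element, TGACNNNGC, to which the proteasome-inducing factor that Nfe2l1 encodes can bind, starting at -47. The window of Psmc5 held none of the motifs searched.
Psme1 (chr14:55578244-55578543, plus strand): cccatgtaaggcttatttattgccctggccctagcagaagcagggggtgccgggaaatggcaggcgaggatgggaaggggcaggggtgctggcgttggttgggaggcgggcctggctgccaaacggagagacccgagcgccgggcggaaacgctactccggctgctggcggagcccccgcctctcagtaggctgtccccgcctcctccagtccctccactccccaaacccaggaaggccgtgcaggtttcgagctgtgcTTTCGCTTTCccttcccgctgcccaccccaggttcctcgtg
Psmc5 (chr11:106255935-106256234, plus strand): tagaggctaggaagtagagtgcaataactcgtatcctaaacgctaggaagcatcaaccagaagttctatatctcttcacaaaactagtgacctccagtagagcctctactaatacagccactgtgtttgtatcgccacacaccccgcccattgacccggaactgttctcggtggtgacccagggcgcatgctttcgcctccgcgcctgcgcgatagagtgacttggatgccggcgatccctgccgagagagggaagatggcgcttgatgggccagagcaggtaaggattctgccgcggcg
Psmb5 (chr14:54617946-54618245, minus strand): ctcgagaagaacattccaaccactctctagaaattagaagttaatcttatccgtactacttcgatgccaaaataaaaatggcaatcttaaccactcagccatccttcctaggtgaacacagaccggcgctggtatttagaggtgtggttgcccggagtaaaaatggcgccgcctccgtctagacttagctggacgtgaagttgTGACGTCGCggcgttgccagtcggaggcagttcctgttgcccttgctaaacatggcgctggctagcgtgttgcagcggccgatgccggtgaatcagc

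Of the 50 genes 42 had a promoter window in that collection, 45 windows in all. The interferon-stimulated core was in 5 of the 45 windows, or 11.1%, against 3.44% of all 32851 windows. Those were the windows of Psme1, Psmb3, Psmd4, Psmd9 and Psmg4. The windows of the immune genes Psmb8, Psmb9 and Psmb10 and of Psme2 did not hold it. The antioxidant core was in 6, or 13.3%, against 12.4% of all. The CCAAT box, the site of the factor NF-Y, was in 15, or 33.3%, against 37.4%. TATAAA was in 4, or 8.89%, against 13.6%, and the palindromic core of the site of nuclear respiratory factor 1 was in 2, or 4.44%, against 0.97%. No base of a printed window belonged to more than 1 of these motifs. A match is a run of letters and no measure of binding.

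Levels of the genes are compared per length, as TPM summed over a gene's transcripts and averaged over the 12 libraries. Psmb7 was the highest at 610 TPM, followed by Psmb6 at 550, Psmb4 at 510, Psmb5 at 451 and Psmb3 at 436 TPM. The 14 constitutive subunits of the core spanned a 3.64-fold range, with Psma2 the lowest at 168 TPM. The coefficient of variation of these 14 genes ranged from 5.42 to 11.001% over the 5 Q84 libraries, with a median of 7.94%, and from 2.76 to 7.62% over the 5 WT libraries, with a median of 4.33%. Neighbours in the order often lay within each other's spread. Psma6 averaged 394 ± 22.5 TPM in Q84 and 399 ± 29.8 TPM in WT, and Psma3 392.3 ± 35.3 TPM in Q84 and 399 ± 21.2 TPM in WT (SD, n = 5 each).

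The ATPases of the cap, Psmc1 to Psmc6, ran from 112 TPM for Psmc2 to 369 TPM for Psmc5. The other cap subunits ran from 24.6 TPM for Psmd3 to 281 TPM for Psmd2, an 11.4-fold range. Psmd3 encodes a subunit of the cap's lid, and it stood below the other 10 genes of that role, the next being Psmd11 at 44.8 TPM. Psmd3 was also among the more variable members, at 22.6 ± 4.79 TPM in Q84 and 25.5 ± 6.62 TPM in WT (SD, n = 5 each). Assembly factors, chaperones that help to build the core or the cap and leave it, were at lower levels than the 14 core subunits: the 7 genes lay between 19.9 TPM for Psmd9 and 58.9 TPM for Psmd5.

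Members known from other tissues were near the floor. Psmb11, the catalytic subunit of thymic epithelium, averaged 0.181 TPM (16.4 to 48.9 estimated counts per library), and Psma8, an alpha subunit of the testis, 0.704 TPM (27.0 to 57.2 counts). Psme2b averaged 0.629 TPM (5.83 to 36.8 counts), and its value is uncertain because 76.5% of its 31-base words also occur in Psme2, a gene at 165 TPM. Psmc3ip stood at 2.65 TPM.

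**Figure D1:**
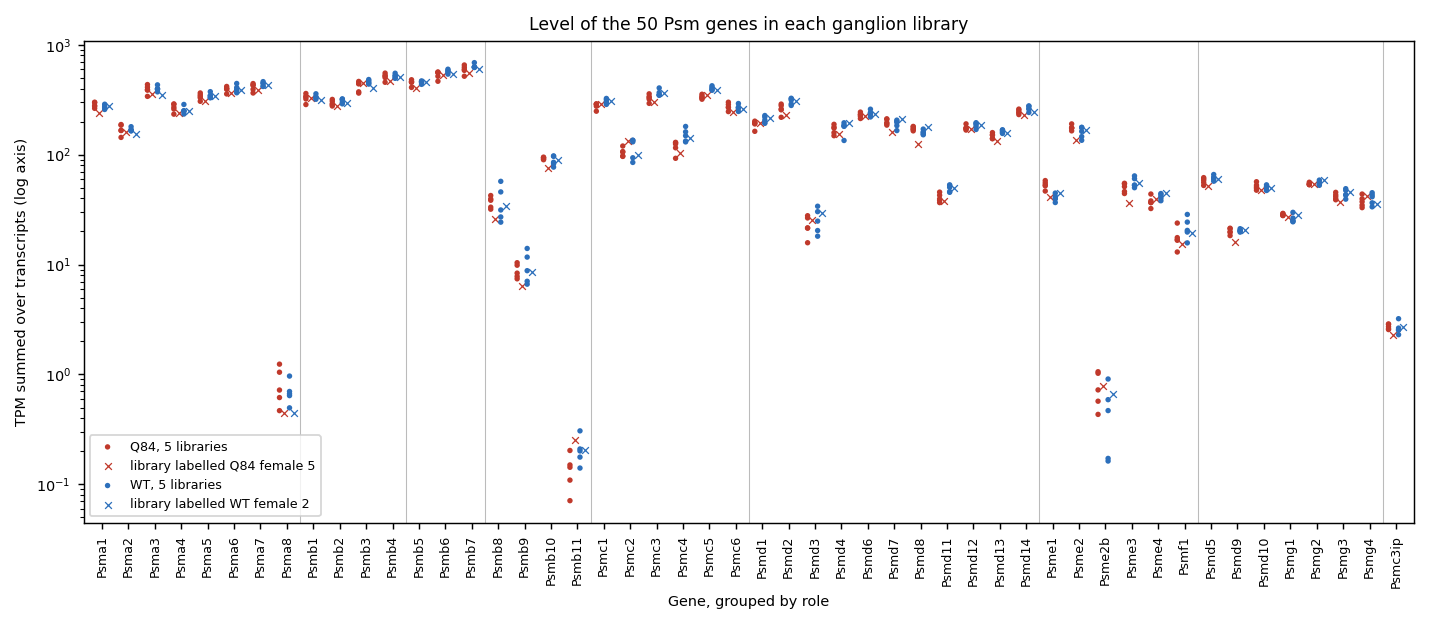
Level of each of the 50 genes (TPM summed over transcripts, log axis) in each library, grouped by role, with Q84 in red and WT in blue. Circles are the 5 Q84 and 5 WT libraries whose Atxn3 transcript fits the label, and crosses are the libraries labelled Q84 female 5 and WT female 2; the 14 constitutive core subunits have means from 168 to 610 TPM, and Psma8, Psmb11 and Psme2b lie near or below 1 TPM.

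Reads of some genes can be shared with copies elsewhere. Of the 50 genes 20 had at least 5% of their 31-base words in a transcript of another gene, and 3, Psma5, Psmb5 and Psme2b, had at least 50%. For Psmb5 the main partner was the processed pseudogene Gm3375, at 0.261 TPM or less, and for Psma5 it was Gm8394, at 0.475 TPM or less. Psma3 differed in that its partner, the processed pseudogene Gm13835, was listed at 93.0 to 143 TPM, so the level of Psma3 itself is uncertain. For Psme1 the share was 9.51%, with its main partner listed at 0 TPM in all 12 libraries, and for Psmc5 it was 0%.

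Most members were counted almost wholly on transcripts annotated as protein coding in GENCODE M21. The exceptions under 90% were Psma3, Psmc3ip, Psmb8, Psmb10, Psma8, Psmd13 and Psmb9. Only 36.5% of the counts of Psma3 were on coding transcripts, and 38.1% were on the retained-intron transcript Psma3-203. That transcript stood at 169 ± 18.4 TPM in Q84 and 169 ± 7.36 TPM in WT (SD, n = 5 each). Of the counts of Psmb8, 59.0% were on coding transcripts and 38.8% on the retained-intron transcript Psmb8-205, at 12.1 ± 1.07 TPM in Q84 and 11.7 ± 4.31 TPM in WT. For Psmb10 the coding share of the counts was 62.4%.

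Of the 6 activator and inhibitor genes only Psme1 was called higher in Q84. Psme1 encodes the alpha subunit of the interferon-inducible ring that caps the core in place of the ATPase cap, and Psme2 encodes its beta subunit. Psme1 stood at 32.8 CPM in the Q84 male and at 33.9, 32.2, 32.4 and 32.1 CPM in Q84 females 1 to 4, against 23.5, 26.4 and 23.5 CPM in the WT males and 26.1 and 24.0 CPM in WT females 1 and 3. All 5 Q84 libraries lay above all 5 WT libraries. The library labelled Q84 female 5 held 26.6 CPM and the library labelled WT female 2 held 25.3 CPM, so both lay below the 5 Q84 libraries and only the first just above the WT range. The fold change was 1.32, a log2 value of 0.40 (SE 0.076, 95% interval 0.23 to 0.56, edgeR, adjusted p = 0.00871, 10 libraries).

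With all 12 libraries as labelled the log2 value of Psme1 was 0.35 (SE 0.080, edgeR, adjusted p = 0.104), and with only Q84 female 5 left out it reached 0.39 (edgeR, adjusted p = 0.00429). In the 10 libraries the call was lost without WT female 3 (adjusted p = 0.0526) or without Q84 male 1 (adjusted p = 0.0738), at log2 values of 0.37 and 0.38. A term for replicate number, which the labels give within a group only, ended the call in the 10 libraries as well. With all 12 libraries Psme1 was called under that term. When single libraries were dropped, the value ranged from 0.37 to 0.42. Both main transcripts were higher in the Q84 libraries: Psme1-208 averaged 42.7 ± 2.82 TPM in Q84 and 34.2 ± 3.38 TPM in WT, and Psme1-210 averaged 8.66 ± 1.22 TPM in Q84 and 4.72 ± 1.65 TPM in WT (SD, n = 5 each, no test per transcript).

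Psme2 did not pass: it averaged 86.8 ± 9.87 CPM in Q84 and 75.0 ± 11.2 CPM in WT (SD, n = 5 each), with a log2 fold change of 0.11 (95% interval -0.10 to 0.33, edgeR, adjusted p = 0.595). It held 70.0 CPM in the library labelled Q84 female 5 and 74.7 CPM in that labelled WT female 2. Per length, Psme1 was at 30.3 ± 3.52% of Psme2 in Q84 and 25.7 ± 3.99% in WT (SD, n = 5 each). These percentages overlapped, at 24.5 to 33.4% in Q84 and 22.4 to 30.6% in WT, and no test was made. Psme3, the nuclear relative of both, and Psme4, which encodes a single-chain activator, had log2 values of -0.05 and -0.02. Psmf1, which encodes a protein first described as a proteasome inhibitor, had -0.08. None of the 3 passed.

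Psmc5, an ATPase of the cap, was the member that fell. It stood at 246 CPM in the Q84 male and at 284, 277, 287 and 260 CPM in Q84 females 1 to 4, against 320, 321 and 303 CPM in the WT males and 307 and 324 CPM in WT females 1 and 3. All 5 Q84 libraries lay below all 5 WT libraries. Here the libraries set apart lay between these ranges or in the Q84 range: the one labelled Q84 female 5 held 298 CPM and the one labelled WT female 2 held 286 CPM.

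The log2 fold change of Psmc5 was -0.25 (SE 0.066, 95% interval -0.39 to -0.10, edgeR, adjusted p = 0.0475), a level of 0.843 times that of WT. The call stood close to the threshold and was lost in 9 of the 10 fits that left out a library, all but that without WT male 1, with values from -0.30 to -0.19. It was lost as well with RLE or upper-quartile scaling of the counts, without a filter on low counts, with coding transcripts alone and in the females alone, where the value was -0.17 (edgeR, adjusted p = 0.304). It was kept with DESeq2 (adjusted p = 0.00754), limma-voom (adjusted p = 0.0451) and length-scaled TPM in limma (adjusted p = 0.0192). A term for replicate number ended this call too. With all 12 libraries the log2 fold change was -0.19 (edgeR, adjusted p = 0.229). The other 5 ATPases did not pass, with log2 values from -0.19 for Psmc4 to 0.09 for Psmc6.

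**Figure D2:**
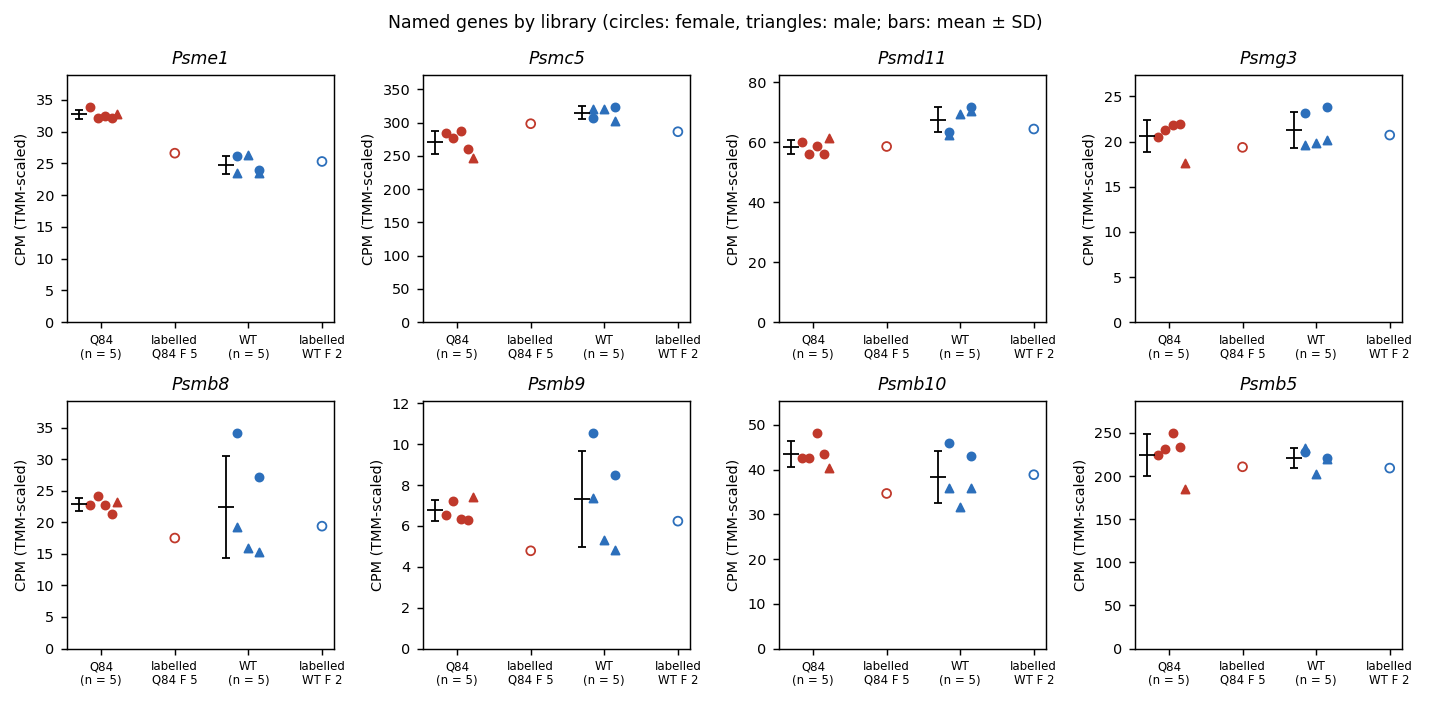
CPM (scaled with TMM) of Psme1, Psmc5, Psmd11, Psmg3, Psmb8, Psmb9, Psmb10 and Psmb5 in each library, Q84 in red and WT in blue, with circles for females and triangles for males, open symbols for the libraries labelled Q84 female 5 and WT female 2, and black bars for the mean ± SD of 5 libraries. Psme1 is at 32.1 CPM or more in the 5 Q84 libraries and at most 26.6 CPM in every other library, while the WT libraries spread widely in Psmb8 and Psmb9.

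None of the 11 other cap subunits passed. The smallest p was that of Psmd11, a lid subunit whose level limits proteasome assembly in human stem cells. It stood at 61.5 CPM in the Q84 male and at 60.0, 56.2, 58.7 and 56.1 CPM in Q84 females 1 to 4, against 62.5, 69.4 and 70.6 CPM in the WT males and 63.5 and 71.9 CPM in WT females 1 and 3. These ranges did not overlap, though the highest Q84 and the lowest WT library were close. The library labelled Q84 female 5 was at 58.6 CPM, with the Q84 libraries, and the one labelled WT female 2 at 64.5 CPM, with the WT libraries. The log2 fold change was -0.19 (SE 0.073, 95% interval -0.35 to -0.04, edgeR, adjusted p = 0.152).

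Psmd2, which encodes a scaffold for ubiquitin receptors at the base of the cap, was the only other member whose ranges did not overlap. It averaged 526.2 ± 25.2 CPM in Q84 and 597 ± 20.9 CPM in WT (SD, n = 5 each; log2 fold change -0.17, edgeR, adjusted p = 0.163), and it is named after its values were seen. It held 487 CPM in the library labelled Q84 female 5 and 580.0 CPM in that labelled WT female 2. In all, 4 of 50 members had ranges that did not overlap, and so had 8.67% of all genes tested. Psmd4, a ubiquitin receptor, and Psmd14, the deubiquitinase of the lid, had log2 values of -0.04 and -0.07 and did not pass. Of the 11 genes 2 had a positive and 9 a negative log2 value, with a median of -0.05.

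In the alpha and beta rings 0 of 12 non-catalytic members passed. The alpha subunit gene of smallest p was Psma7, which stood at 168 CPM in the Q84 male and at 198, 227, 241 and 214 CPM in Q84 females 1 to 4, against 238, 200 and 214 CPM in the WT males and 211 and 222 CPM in WT females 1 and 3. The groups overlapped, and the Q84 male was the lowest library. The library labelled Q84 female 5 held 205 CPM and the one labelled WT female 2 held 199 CPM. The log2 fold change was -0.12 (SE 0.097, edgeR, adjusted p = 0.572).

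The Q84 male had the lowest median of the 12 libraries over the group. The median over the 50 genes of the log2 difference from the WT mean was -0.17 in that library and -0.03 to 0.15 in Q84 females 1 to 4, against -0.06 to 0.09 in the 5 WT libraries. It was -0.06 in the library labelled Q84 female 5 and -0.08 in the one labelled WT female 2. Without the Q84 male the median log2 fold change over the members was 0.03, and with it -0.04. Of the 12 libraries it also had the highest sums of skeletal muscle (623 CPM), adipocyte (27.4 CPM), red blood cell (1826 CPM) and granulocyte (386 CPM) markers. The same held for fibroblast (1218 CPM), endothelium (74.3 CPM) and macrophage (126 CPM) markers, and not for those of sensory neurons, satellite glia, Schwann, T or B cells. With 1 Q84 male, its sex, its tissue content and the library cannot be told apart.

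Of the standard catalytic genes none passed. Psmb5, the chymotrypsin-like subunit, stood at 185 CPM in the Q84 male and at 224, 231, 250 and 234 CPM in Q84 females 1 to 4, against 233, 203 and 220 CPM in the WT males and 228 and 220 CPM in WT females 1 and 3. The 2 groups overlapped (log2 fold change -0.04, 95% interval -0.22 to 0.13, edgeR, adjusted p = 0.831). The libraries labelled Q84 female 5 and WT female 2 held 211 and 209 CPM. Psmb6, the caspase-like subunit, stood at 176 CPM in the Q84 male and at 212, 234, 257 and 231 CPM in Q84 females 1 to 4, against 248, 212 and 223 CPM in the WT males and 238 and 246 CPM in WT females 1 and 3. Those ranges overlapped as well (log2 fold change -0.16, 95% interval -0.36 to 0.03, edgeR, adjusted p = 0.341), and Psmb6 held 232 CPM in the library labelled Q84 female 5 and 204 CPM in that labelled WT female 2.

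Psmb7, the trypsin-like subunit, stood at 328 CPM in the Q84 male and at 401, 434, 503 and 407 CPM in Q84 females 1 to 4, against 485, 403 and 410 CPM in the WT males and 428 and 423 CPM in WT females 1 and 3. The Q84 libraries held both the lowest and the highest value (log2 fold change -0.12, 95% interval -0.36 to 0.12, edgeR, adjusted p = 0.618). The libraries labelled Q84 female 5 and WT female 2 held 397 and 381 CPM.

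The immune catalytic genes did not pass either, and their spread between WT libraries was wider than that of the standard ones. Over the 5 WT libraries the coefficient of variation of the TPM was 37.5% for Psmb8, 32.8% for Psmb9 and 10.2% for Psmb10, and 2.76 to 4.39% for the standard genes. Psmb8, the immune counterpart of Psmb5, stood at 23.2 CPM in the Q84 male and at 22.7, 24.2, 22.7 and 21.2 CPM in Q84 females 1 to 4, against 19.3, 15.9 and 15.4 CPM in the WT males and 34.1 and 27.2 CPM in WT females 1 and 3. The Q84 libraries lay together inside the WT range, above the WT males and below WT females 1 and 3. The log2 fold change was -0.10 (95% interval -0.44 to 0.24, edgeR, adjusted p = 0.786), and it was 0.07 without WT female 1. The libraries labelled Q84 female 5 and WT female 2 held 17.5 and 19.4 CPM.

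Psmb9, the counterpart of Psmb6, stood at 7.43 CPM in the Q84 male and at 6.52, 7.23, 6.35 and 6.30 CPM in Q84 females 1 to 4, against 7.36, 5.33 and 4.83 CPM in the WT males and 10.5 and 8.51 CPM in WT females 1 and 3. Again the Q84 values lay inside the WT range (log2 fold change -0.20, 95% interval -0.60 to 0.19, edgeR, adjusted p = 0.600). The libraries labelled Q84 female 5 and WT female 2 held 4.79 and 6.24 CPM. Psmb10, the counterpart of Psmb7, stood at 40.5 CPM in the Q84 male and at 42.7, 42.6, 48.2 and 43.6 CPM in Q84 females 1 to 4, against 35.9, 31.7 and 35.8 CPM in the WT males and 45.9 and 43.0 CPM in WT females 1 and 3. Here too the ranges overlapped (log2 fold change 0.08, 95% interval -0.10 to 0.26, edgeR, adjusted p = 0.663), with 34.7 CPM in the library labelled Q84 female 5 and 38.9 CPM in that labelled WT female 2.

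As WT females 1 and 3 stood above the WT males in all 3 immune genes, the term for sex was read from the 12-library fit after these values were seen. No member passed (edgeR, 0 of 50, where 0.0636% of all genes were called, lowest adjusted p = 1). At an unadjusted p under 0.05 there were 3 members, Psmb8, Psmb10 and Psmg3, all lower in males, and 3.82% of all genes. The calls over all genes split into 0.0477% higher and 0.0159% lower in males.

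Macrophages and lymphocytes carry much immunoproteasome, so their markers were read beside these genes. The 10 macrophage markers were all detected and summed to 84.5 to 126 CPM in the 5 Q84 libraries and 62.2 to 115 CPM in the 5 WT libraries, with 66.0 CPM in the library labelled Q84 female 5 and 76.6 CPM in that labelled WT female 2. The highest sum of all, 126 CPM, was in the Q84 male. Of the 5 Q84 libraries it had the highest CPM of Psmb9 and the lowest of Psmb10, with Psmb8 inside their range. The highest WT sum, 115 CPM, was in WT female 1, the library with the highest Psmb8 and Psmb9. None of the 10 passed. The 5 T cell markers summed to 1.49 to 2.82 CPM in Q84 and 3.26 to 4.35 CPM in WT, with 4.06 CPM in the library labelled Q84 female 5 and 1.94 CPM in that labelled WT female 2. Of these 5, Cd3e and Cd8a fell in Q84 in the 10 libraries (edgeR, log2 fold changes -1.11 and -1.25, adjusted p = 0.0260 and 0.0158), where 4.93% of all genes were called lower. The other 3 did not pass, with Cd3d at 0.02, Cd3g at -0.06 and Trac at -0.83, and with all 12 libraries neither call held (adjusted p = 0.365 and 0.569). The 4 B cell markers summed to 2.23 to 5.87 CPM in Q84 and 1.146 to 3.49 CPM in WT, with 1.12 CPM in the library labelled Q84 female 5 and 1.83 CPM in that labelled WT female 2, and none passed.

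Markers of other cells were read in the same way, and their sums overlapped between Q84 and WT. The 5 granulocyte markers summed to 136 to 386 CPM in the 5 Q84 libraries and 36.5 to 213 CPM in the 5 WT libraries, with 28.8 CPM in the library labelled Q84 female 5 and 53.9 CPM in that labelled WT female 2. The 5 red blood cell markers summed to 462 to 1826 CPM in Q84 and 173 to 1033 CPM in WT, with 274 CPM in the library labelled Q84 female 5 and 300.2 CPM in that labelled WT female 2. None of these 10 markers passed, and the list medians of the log2 fold change were 1.25 and 1.34.

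The 5 fibroblast markers summed to 997 to 1218 CPM in Q84 and 796 to 1176 CPM in WT, with 1114 CPM in the library labelled Q84 female 5 and 831 CPM in that labelled WT female 2. Pdgfra, a receptor of fibroblasts, rose (log2 fold change 0.62, edgeR, adjusted p = 0.00303), and the other 4 did not pass. Of the 5 satellite glia markers 1 rose, Cadm2 (0.75, edgeR, adjusted p = 0.0026), and of the 10 sensory neuron markers 1 fell, Pou4f1 (-0.78, edgeR, adjusted p = 0.0123). None of these 3 calls held with all 12 libraries. In the 10 libraries 1.52% of all genes tested were called higher and 4.93% lower. The other 4 satellite glia markers ran from -0.27 for Glul to 0.09 for Fabp7, with a list median of 0.01. The other 9 sensory neuron markers ran from -0.75 for Scn10a to 0.06 for Isl1, with a list median of -0.21. No marker of Schwann cells, endothelium, skeletal muscle or adipocytes passed. Their list medians of the log2 fold change were 0.20, 0.28, 2.51 and 1.70, in that order. The skeletal muscle markers summed to 1.81 to 623 CPM in Q84 and 2.08 to 176 CPM in WT. They held 105 CPM in the library labelled Q84 female 5 and 276 CPM in that labelled WT female 2. The adipocyte markers summed to 1.30 to 27.4 CPM in Q84 and 1.24 to 3.65 CPM in WT. The part of any of these cells in the levels of Psme1 and of the immune subunits was not tested.

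Per length, the immune subunits were the minor form in every library. Psmb8 was at 8.25 ± 1.41% of Psmb5 in Q84 and 8.14 ± 3.01% in WT. Psmb9 was at 1.66 ± 0.364% of Psmb6 in Q84 and 1.68 ± 0.525% in WT. Psmb10 was at 15.6 ± 1.22% of Psmb7 in Q84 and 13.8 ± 1.67% in WT (SD, n = 5 each). These percentages use TPM summed over all transcripts of a gene, non-coding ones included. For Psmb10, the coding transcript Psmb10-201 averaged 35.4 ± 1.75 TPM in Q84 and 29.3 ± 5.12 TPM in WT. Its retained-intron transcript Psmb10-205 averaged 43.9 ± 3.18 TPM in Q84 and 42.9 ± 3.57 TPM in WT. Of the 5 Q84 libraries the Q84 male had the highest percentages, at 10.4% for Psmb8, 2.23% for Psmb9 and 17.6% for Psmb10. Its TPM of Psmb5, Psmb6 and Psmb7 were the lowest of those libraries. In each pair of an immune and a standard gene the percentages of Q84 and WT overlapped, and no test was made.

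**Figure D3:**
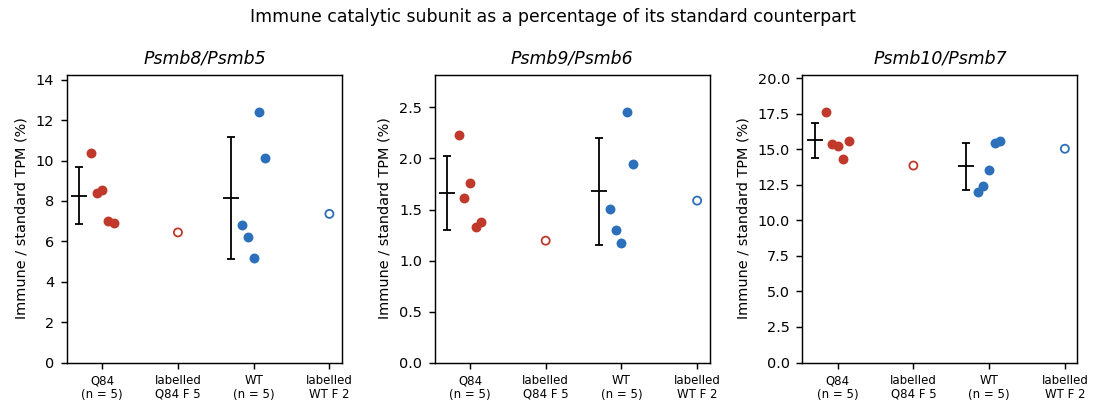
TPM of Psmb8, Psmb9 and Psmb10 as a percentage of the TPM of Psmb5, Psmb6 and Psmb7 in each library, Q84 in red and WT in blue, with open symbols for the libraries labelled Q84 female 5 and WT female 2 and black bars for the mean ± SD of 5 libraries. The percentages of Psmb8 run from 6.93 to 10.4% in the 5 Q84 libraries and from 5.18 to 12.4% in the 5 WT libraries. TPM are summed over all transcripts of a gene, non-coding ones included.

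Of the 7 assembly factors none passed, and 4 had a positive and 3 a negative log2 value. Psmg3, a chaperone of alpha ring assembly, had the smallest p. It stood at 17.6 CPM in the Q84 male and at 20.5, 21.2, 21.8 and 22.0 CPM in Q84 females 1 to 4, against 19.6, 19.8 and 20.2 CPM in the WT males and 23.1 and 23.8 CPM in WT females 1 and 3. Within each sex the Q84 libraries were the lower, and over both sexes the groups overlapped (log2 fold change -0.15, SE 0.074, edgeR, adjusted p = 0.288). The libraries labelled Q84 female 5 and WT female 2 held 19.4 and 20.7 CPM. Psmd5, Psmd9 and Psmd10, chaperones of the base of the cap, had log2 values of 0.01, 0.02 and 0.03.

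In the 10 libraries most of the group had narrow intervals, each for a single gene and not adjusted over genes. Of the 46 members at a mean of at least 5 TPM, 44 had a 95% interval of the log2 fold change that lay wholly between -0.50 and 0.50, a change of less than 1.41-fold either way. The others were Psme1, with an upper bound of 0.56, and Psmb9, with a lower bound of -0.60. The values can move with 1 library: that of Psmb8, among the 44, ran from -0.43 to 0.07 as single libraries were dropped. For the 4 members at lower levels no such bound can be given: the interval of Psmb11 ran from -1.09 to 0.27.

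**Figure D4:**
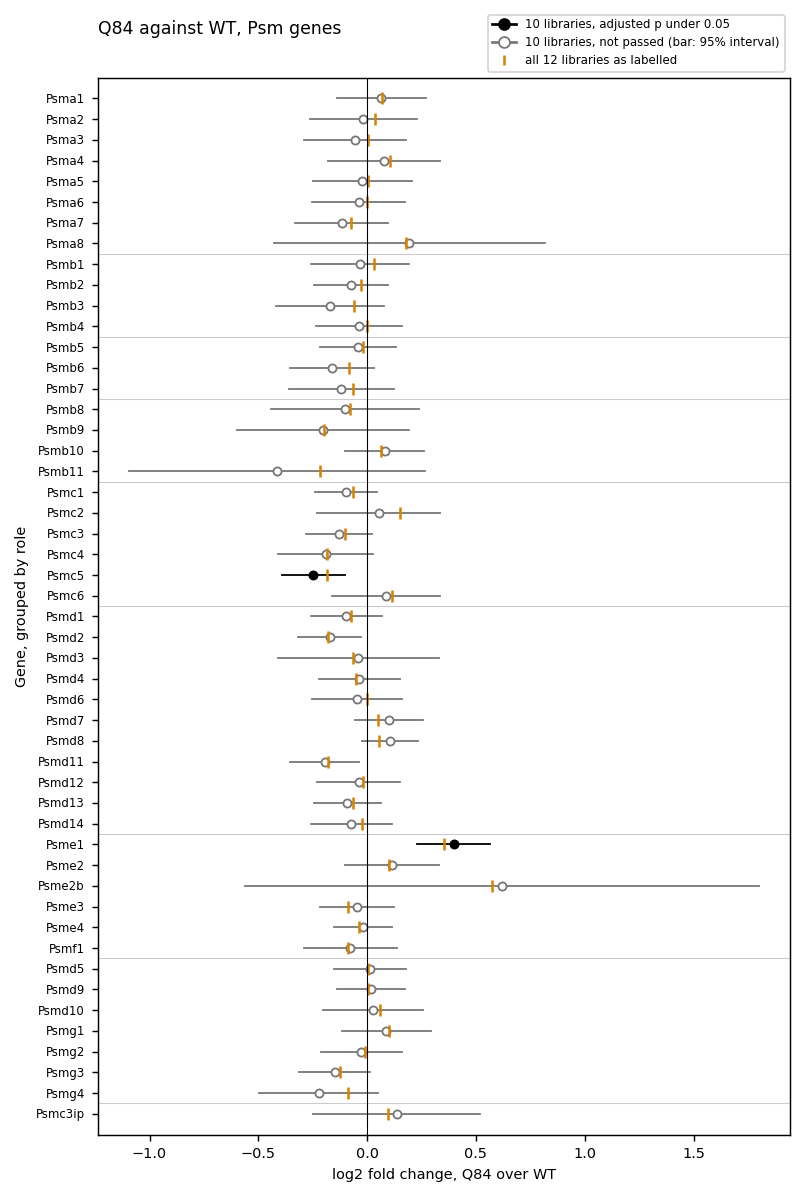
Log2 fold change, Q84 over WT, of the 50 genes grouped by role, with circles and 95% intervals from the 10 libraries, filled where the adjusted p was under 0.05, and orange ticks for all 12 libraries as labelled. The filled circles are Psme1 at 0.40 and Psmc5 at -0.25, and the widest intervals belong to Psme2b, Psmb11 and Psma8.

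Genes around the proteasome were read from lists of known function. Of 16 further proteasome genes measured, such as Adrm1 and Sem1 of the cap and the maturation factor Pomp, 0 passed in the 10 libraries, with a median log2 fold change of 0.00. The smallest p belonged to Zfand5, a proteasome-binding protein (-0.22, edgeR, adjusted p = 0.128), and Fbxo7, which binds the inhibitor encoded by Psmf1 (0.20, adjusted p = 0.151). Of 14 regulators of proteasome genes, among them Nfe2l1 and its protease Ddi2, 0 passed (median 0.05), with Nfyc at 0.25 and Mafg at -0.22 the smallest in p.

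Of 16 genes of interferon response and antigen presentation 0 passed (median 0.05). Irf9, a subunit of the factor that binds the interferon-stimulated element, had the smallest p, at 28.3 ± 3.46 CPM in Q84 and 20.6 ± 3.04 CPM in WT (SD, n = 5 each; log2 fold change 0.44, edgeR, adjusted p = 0.0598). It held 18.8 CPM in the library labelled Q84 female 5 and 26.1 CPM in that labelled WT female 2. Nlrc5, a regulator of class I antigen presentation genes, was at -0.59 and did not pass. Of 13 genes of ubiquitin and substrate extraction 0 passed (median -0.04), with Stub1 at -0.24 and Ubb at -0.13 the smallest in p.

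Of 10 targets of the stress-responsive NRF factors 2 fell and 8 did not pass, where 4.93% of all genes tested were called lower. Hmox1, the heme-degrading enzyme, was at 13.4 ± 3.68 CPM in Q84 and 27.5 ± 5.48 CPM in WT, a log2 fold change of -1.01 (SE 0.20, edgeR, adjusted p = 0.0126). Srxn1, an enzyme that repairs peroxiredoxins, was at 208 ± 9.91 CPM in Q84 and 280 ± 43.0 CPM in WT, a log2 fold change of -0.35 (SE 0.095, edgeR, adjusted p = 0.0477; SD, n = 5 each). The library labelled Q84 female 5 held 28.3 CPM of Hmox1 and that labelled WT female 2 held 23.1 CPM, and they held 219 and 249.3 CPM of Srxn1. The median of the list was -0.08, and with all 12 libraries 0 of its genes were called.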

How the data were processed

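Estimated counts and TPM per transcript were deposited by the authors for each library. The submitters' processing notes name kallisto 0.46.2, STAR 2.7.10b and the build GRCm39 but give no roles, and the columns are those of kallisto, per the file headers. The deposited estimated counts carry each library's depth, whereas deposited TPM are corrected for effective length and sum to one fixed total. No source used here gives the release of the transcript set. Libraries were poly(A) selected, per the labels' protocols, and strand is not stated.

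Transcripts were matched to genes by Ensembl identifier without version in GENCODE M21 (98.3% of 116313). Unmatched ones, 0.751 to 0.804% of counts, were left out. Gene sums of the estimated counts were rounded. After filterByExpr (4 groups, by genotype and sex) and TMM scaling, the robust quasi-likelihood test of edgeR 4.0.16 was run with terms for sex and genotype, a threshold of 0.05 and adjustment over all genes tested. The 10-library comparison leaves out, and moves nowhere, libraries whose Atxn3 transcript lay on the other side of 10 TPM. CPM are TMM-scaled over 12 libraries. SE and 95% intervals come from the fit. DESeq2 1.42.0 and limma 3.58.1 (voom, and log2 of TPM plus 0.1) were alternatives, beside other scalings, no filter, coding transcripts alone, females alone, a block on replicate number and fits that dropped 1 library.

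The members, lists and tests were chosen with earlier results of these data known. Values in every library are given for members that passed, the 6 standard and immune catalytic genes and the gene of smallest p per role; pathway list genes are named if they passed, or else the 2 of smallest p, and cell type lists are given as sums with the markers that passed. In counts simulated from the 10 libraries (18317 genes) 28.0% of 1.5-fold changes were recovered, 64.0% of 2-fold, 76.0% of 4-fold and 94.0% of 8-fold ones, and 9 of 140 calls were false. From 12 libraries (18433 genes) the shares were 34.0%, 54.0%, 74.0% and 94.0%, and 7 of 135 calls were false. The changed genes were drawn at random from all genes in the simulation, so these shares are not specific to the proteasome genes. No 2 libraries of a group agreed within sampling noise (chi-square per degree of freedom 30.9 or more).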

Additional observations from a re-analysis of the deposited data

Results flagged for a closer look

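Among 33 combinations of a named gene and a group of 5 libraries, 1 held a library far from the others. In the 5 libraries labelled Q84 female, Psme1 stood at 26.6 CPM in Q84 female 5, and its distance to the nearest of the other 4 was 0.761 of the whole range. Chance flags about 5% of such groups. That library is the one whose Atxn3 transcript goes against its label.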

How the results depend on the processing

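The count of called proteasome genes was small and moved with the processing. With all 12 libraries it was 0, and 2 with DESeq2, 1 with the replicate block, and 0 to 1 with each library left out, the 1 being Psme1 without the library labelled Q84 female 5. With the 10 libraries it was 2, and 1 with RLE size factors, upper-quartile scaling, no filter, coding transcripts only or females only, 0 with the replicate block, and 0 to 2 with each library left out; the cause was not tested. In those counts of 1 the gene was Psme1. Among the fits of the 10 that left out a library, the counts of 0 came without WT female 3 or Q84 male 1. The replicate numbers share only a number: deviations of same-numbered libraries correlated at -0.128 to 0.239, and the best match had the same number in 9 of 18 comparisons. Over all genes there was 1 call with 12 libraries, against 639 with the replicate block, 620 with DESeq2, 157 with length-scaled TPM, 15 with no filter and 0 in females only, and 0 to 1082 with each library left out, the highest without Q84 female 5. With 10 libraries there were 1208, against 701 with the block and 1934 with DESeq2, and 681 to 1980 with each library left out, the lowest without Q84 male 1 and the highest without WT male 1. The median over the members ranged from -0.075 to 0.05 with 12 libraries and from -0.09 to 0.05 with 10, all within the spread between libraries (0.0932). Signs changed in members that did not pass. With 12 libraries Psmb10 was -0.0155 with length-scaled TPM and -0.0070 in females only, where Psma7 was 0.0429, Psmb5 0.0707, Psmb6 0.0258 and Psmb7 0.0623. With 10 libraries in females only Psma7 was 0.0358, Psmb5 0.0828 and Psmb7 0.0506. With each library left out, the ranges with 12 libraries were -0.124 to 0.0431 for Psma7, -0.0067 to 0.113 for Psmb10, -0.0568 to 0.0708 for Psmb5, -0.159 to 0.0257 for Psmb6, -0.128 to 0.0625 for Psmb7 and -0.311 to 0.0949 for Psmb8. With 10 they were -0.200 to 0.0211 for Psma7, -0.0055 to 0.12 for Psmb10, -0.0953 to 0.0672 for Psmb5, -0.186 to 0.0357 for Psmb7 and -0.433 to 0.0729 for Psmb8. Low counts limit the precision of Psmb11, Psma8 and Psme2b.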
